A study of Mus musculus with 8 samples.

Results

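Valine tRNA fragments were taken from a table of tRNA-derived fragments (tRFs) of mouse islet macrophages (iMACs) as every sequence named for the cytosolic tRNA-Val-AAC, tRNA-Val-CAC or tRNA-Val-TAC. There were 7 such sequences among the 144 distinct sequences of the table, and they held 784 of its 18250 counts (4.30%). Members were chosen by tRNA name, but valine itself was selected on measured values, the db/db over wild-type fold changes and adjusted p values of its 28-nt and 23-nt forms, which were already known to pass the genotype test. The fold changes, adjusted p values and overlaps between groups below describe these libraries and are no independent evidence. The cells were sorted on CD45, F4/80, CD11b and CD11c, all of them positive, from the islets of male mice aged 8 weeks. Both groups were of the BKS background, and the db/db group carried the db mutation of the leptin receptor gene Lepr, which leads to overeating, obesity and hyperglycemia. Each genotype had 4 libraries, and islets of several mice were pooled for a sort, with more mice for a wild-type than for a db/db preparation. That the libraries are separate preparations follows from the methods of the study and not from the labels, so n counts libraries. The table lists tRNA fragments only, so the labelled cell type could not be checked against marker genes.

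Transfer RNAs bring amino acids to the ribosome and read codons through their anticodon, and tRNAs that carry the same amino acid with different anticodons are called isoacceptors. The isoacceptors of valine are Val-AAC, whose first anticodon base is converted to inosine so that it reads several valine codons, Val-CAC, which reads GUG, and Val-TAC, which reads GUA. Ribonucleases such as angiogenin cut mature tRNAs, often in the anticodon loop under stress, and the pieces that keep the tRNA's own 5' end are called 5'tRFs.

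All 7 valine fragments were 5'tRFs, with 0 internal and 0 3' fragments, whereas the whole table held 63 5', 67 internal and 14 3' fragments. The table goes down to 8 nt, and fragments too short for a 5' start to be recognised were counted as internal unless they ended in CCA. The sequences are shown because 6 of them are 1 nested series that shares its first base and differs only in where it stops. Capitals mark the bases that each form has beyond the next shorter listed form.
Gly-ACC/Val-AAC/Val-CAC, 18 nt: gtttccgtagtgtagtgg
Val-AAC/Val-CAC, 22 nt: gtttccgtagtgtagtggTTAT
Val-AAC/Val-CAC, 23 nt: gtttccgtagtgtagtggttatC
Val-AAC/Val-CAC, 28 nt: gtttccgtagtgtagtggttatcACGTT
Val-AAC/Val-CAC, 29 nt: gtttccgtagtgtagtggttatcacgttC
Val-AAC/Val-CAC, 30 nt: gtttccgtagtgtagtggttatcacgttcG

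The fragments cannot tell Val-AAC from Val-CAC, since 5 of the 7 are listed under both of these names and the 18-nt form under both and under Gly-ACC, a glycine tRNA. The seventh fragment is the only one of Val-TAC. It has 23 nt, and capitals mark where it departs from the 23-nt form of Val-AAC and Val-CAC.
Val-TAC, 23 nt: gGttccAtagtgtagCggttatc
Counted from 1 at the 5' end, with the base of the Val-AAC/Val-CAC form first, the 3 differences are T2G, G7A and T16C.

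To place the ends of the fragments, 1 tRNA gene was read whole from RefSeq sequence of GRCm38.p6. It is n-TVcac9, a Val-CAC gene of 73 nt on chromosome 13 (23446142 to 23446214, minus strand), and its anticodon is in capitals.
n-TVcac9, chr13:23446142-23446214, minus strand: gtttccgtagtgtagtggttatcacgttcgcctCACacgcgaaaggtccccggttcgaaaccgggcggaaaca
The anticodon is at positions 34 to 36 of this gene, in a loop from 32 to 38, and the 5' strand of the anticodon stem covers positions 27 to 31. The 28-nt, 29-nt and 30-nt forms therefore end within that stem strand, with 5, 4 and 3 bases left before the anticodon. The 23-nt and 22-nt forms stop 10 and 11 bases before the anticodon, and the 18-nt form stops 15 bases before it. No listed valine fragment measured 24 to 27 nt (0 of 7), against 15 of the 56 5'tRFs of other tRNAs. The longest fragments in the table have 30 nt, so longer pieces that reach the loop were not analysed here. RefSeq lists 8 Val-AAC, 11 Val-CAC and 3 Val-TAC genes, with 5 of the Val-AAC and 5 of the Val-CAC genes on chromosome 13, and the fragments were not assigned to single gene copies. No valine sequence was found within a GENCODE M21 transcript of another gene (0 of 7, against 30 of 144 in the table). These counts are not matched for length, since the table goes down to 8 nt and the valine fragments only to 18 nt.

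The listed counts ranged from 1477 to 4567 per library, and the valine counts from 27 to 164, so the values of single fragments rest on few molecules. Wild-type replicates 3 and 4, together with db/db replicate 1, stood apart from the rest, because 5'tRFs of Ser-GCT, Leu-TAG and Cys-GCA made up 37.6%, 31.8% and 27.1% of their listed counts, against 1.56% to 2.81% in the other 5 libraries. A share taken by that block is by construction not left for other tRNAs, and results are therefore also given without these 3 libraries, called Cys/Leu/Ser-rich below. Levels below are shares of the listed counts of a library, in percent, and a positive log2 fold change from edgeR on TMM-scaled counts means higher in db/db. In bulk libraries of sorted cells, fewer cells with a fragment and fewer copies per cell cannot be told apart.

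Over all 7 fragments, valine made up a larger part of the listed counts in most db/db libraries. Wild-type replicates 1 to 4 had valine shares of 2.02%, 5.21%, 2.28% and 1.34%, on average 2.71% ± 1.71 (SD, n = 4). The shares of db/db replicates 1 to 4 were 4.17%, 5.72%, 8.30% and 9.59%, on average 6.94% ± 2.45 (SD, n = 4). Of the db/db libraries 3 of 4 lay above every wild-type library, and db/db replicate 1 lay below wild-type replicate 2, so the groups overlapped. Among the 5 libraries that were not Cys/Leu/Ser-rich they did not overlap. Wild-type replicate 2 had the highest wild-type share for 7 of the 7 fragments, and it was also the library with the fewest listed counts.

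**Figure D1:**
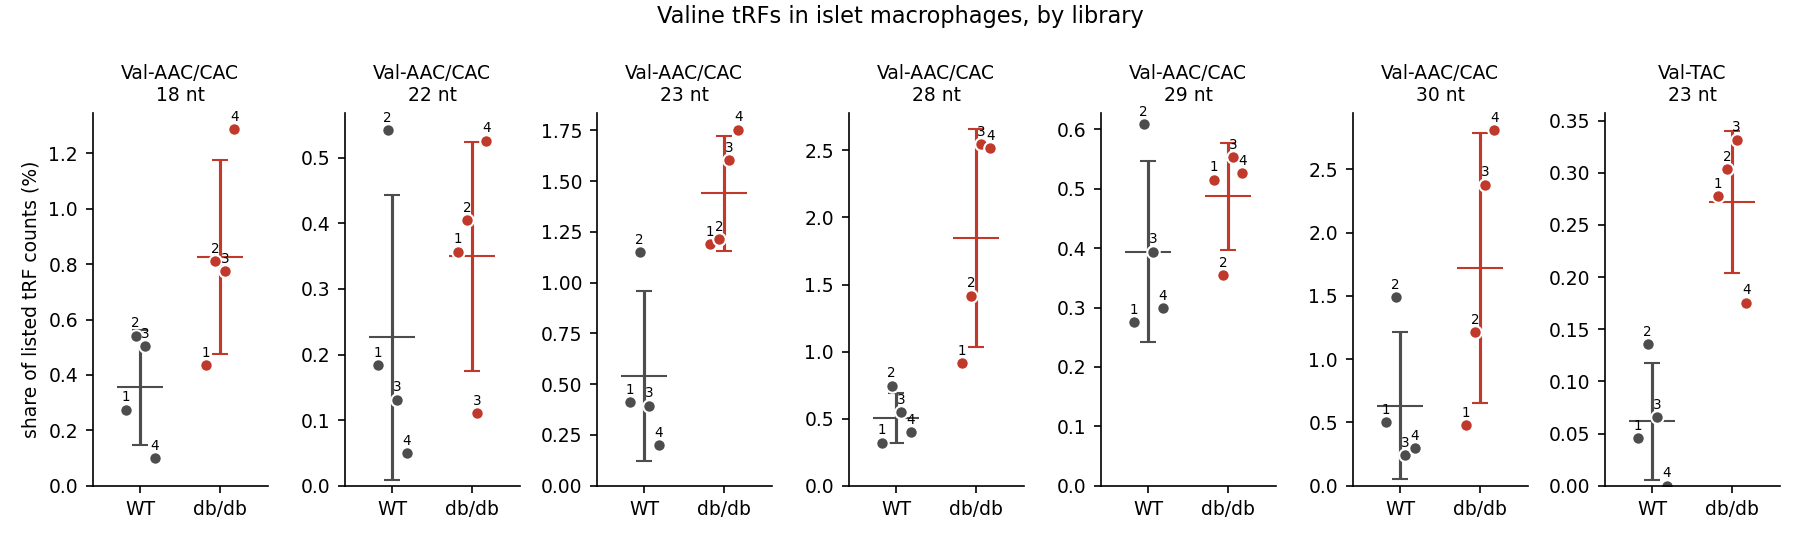
Share of the listed tRF counts of a library (%, linear axes that start at 0 and differ between panels) held by each of the 7 valine tRFs in 4 wild-type (WT, grey) and 4 db/db (red) libraries, numbered by replicate, with mean and SD as bars. The 18-nt form, also named for Gly-ACC, is in the first panel, and the groups do not overlap for 3 of the 7 fragments, the 23-nt and 28-nt forms of Val-AAC/CAC and the Val-TAC fragment.

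The 28-nt form of Val-AAC and Val-CAC had the most counts of the 7 fragments, 191 in all. Wild-type replicates 1 to 4 held 7, 11, 25 and 8 of its counts, against 23, 28, 46 and 43 for db/db replicates 1 to 4. The wild-type shares were thus 0.321%, 0.745%, 0.547% and 0.398%, the db/db shares 0.912%, 1.42%, 2.54% and 2.51%, with means of 0.503% ± 0.187 and 1.85% ± 0.815 (SD, n = 4 each). The groups did not overlap, and db/db replicates 3 and 4 were the highest. The fit gave a log2 fold change of 2.05 (SE 0.58, edgeR adjusted p = 0.0678).

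The 23-nt form, which stops before the anticodon stem, had the smallest relative spread between db/db libraries of the 3 forms with the most counts. Its counts were 9, 17, 18 and 4 for the wild-type libraries against 30, 24, 29 and 30 for the db/db libraries. The wild-type shares were 0.412%, 1.15%, 0.394% and 0.199%, the db/db shares 1.19%, 1.21%, 1.604% and 1.75%, with means of 0.539% ± 0.419 and 1.44% ± 0.282 (SD, n = 4 each). The groups did not overlap, but wild-type replicate 2 came within a narrow margin of db/db replicate 1. Here the log2 fold change amounted to 1.68 (SE 0.53, edgeR adjusted p = 0.0698).

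The 30-nt form, the longest of the series, held 177 counts and differed widely between libraries of one genotype. The wild-type counts were 11, 22, 11 and 6 and the db/db counts 12, 24, 43 and 48, or 0.504%, 1.49%, 0.241% and 0.299% against 0.476%, 1.21%, 2.38% and 2.81% of the listed counts. The means were 0.633% ± 0.582 and 1.72% ± 1.07 (SD, n = 4 each). The groups overlapped, since db/db replicates 1 and 2 lay below wild-type replicate 2. Its log2 fold change of 1.80 (SE 0.73) did not pass (edgeR adjusted p = 0.156).

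The 29-nt form, which ends 1 base short of the 30-nt form, showed the smallest difference between genotypes of the 5 valine fragments tested. The wild-type counts were 6, 9, 18 and 6 and the db/db counts 13, 7, 10 and 9, or shares of 0.275%, 0.609%, 0.394% and 0.299% against 0.516%, 0.354%, 0.553% and 0.526%. The means were 0.394% ± 0.152 and 0.487% ± 0.0901 (SD, n = 4 each). The groups overlapped, and no db/db library exceeded wild-type replicate 2, although 2 of 4 did so on TMM-scaled values. The log2 fold change of 0.47 (SE 0.44, edgeR adjusted p = 0.577) did not pass. Nor did the fragment pass in any of the 15 other fits that tested it.

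Of the 2 shortest forms, which stop before the end of the 23-nt form, the 18-nt form did not pass the test. The filter on low counts removed the 22-nt form. For the 18-nt form shared with Gly-ACC the wild-type counts were 6, 8, 23 and 2 and the db/db counts 11, 16, 14 and 22, or 0.275%, 0.542%, 0.504% and 0.0996% against 0.436%, 0.810%, 0.774% and 1.29%. Only db/db replicate 1 fell into the wild-type range, and its log2 fold change of 1.36 did not pass (SE 0.58, edgeR adjusted p = 0.156). For the 22-nt form the wild-type counts were 4, 8, 6 and 1 and the db/db counts 9, 8, 2 and 9, or 0.183%, 0.542%, 0.131% and 0.0498% against 0.357%, 0.405%, 0.111% and 0.526%. Its groups overlapped over most of their range, and without a filter on low counts its log2 fold change was 0.91 (edgeR adjusted p = 0.59).

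Val-TAC, with the fewest genes of the 3 isoacceptors, gave the least abundant valine fragment, ranked 141 of 144 in the table by mean share. Wild-type replicates 1 to 4 held 1, 2, 3 and 0 counts, against 7, 6, 6 and 3 for db/db replicates 1 to 4. The wild-type shares were 0.0458%, 0.135%, 0.0657% and 0%, where 0 of 2009 counts allows a share of up to 0.149% by a floor of 3 counts and 0.191% by the 95% Wilson interval, against db/db shares of 0.278%, 0.304%, 0.332% and 0.175%. The means were 0.0617% ± 0.0563 and 0.272% ± 0.0682 (SD, n = 4 each). The groups did not overlap, although the upper Wilson bound of every wild-type library lies above the share of db/db replicate 4. That of wild-type replicate 2 (0.492%) lies above every db/db share. The filter on low counts removed the fragment, and without it the log2 fold change of 2.24 (SE 1.009) did not pass (edgeR adjusted p = 0.278). Among the 23-nt valine counts, Val-TAC was 1 of 10, 2 of 19, 3 of 21 and 0 of 4 for the wild-type libraries, against 7 of 37, 6 of 30, 6 of 35 and 3 of 33 for the db/db libraries (mean 8.70% ± 6.11 and 16.3% ± 4.94, SD, n = 4 each). These groups overlapped, so at this depth the isoacceptors could not be told apart in their difference between genotypes.

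Over the whole table, 9 of all 144 fragments (6.25%) had genotypes that did not overlap, with db/db higher. Among these were 3 of the 7 valine fragments. The 28-nt and 23-nt forms, on which valine was selected, were among these 3, so the count is no independent evidence. Of the 44 fragments that passed the low-count filter and were tested, 6 were called higher in db/db (13.6%) and 0 lower. A fragment was called at an adjusted p below 0.1 with a fold change above 2. At an unadjusted p below 0.05 there were 10 higher (22.7%) and 2 lower (4.55%), and DESeq2 on all 144 fragments called 15 higher (10.4%). The valine fragments tested numbered 5 of 7, and the 28-nt and 23-nt forms were those called, by edgeR and by DESeq2. The filter asks for a minimum level in as many libraries as 1 group holds, so a fragment high in db/db alone can pass it. Without that filter the log2 fold changes of the 7 valine fragments were all above 0 with a median of 1.68, while 63 of all 144 fragments were above 0 with a median of -0.11. In that fit 11 of the 144 were called higher in db/db (7.64%), with 0 of the 7 among them. Since the 6 nested forms share 1 5' end, they are not 6 separate changes.

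**Figure D2:**
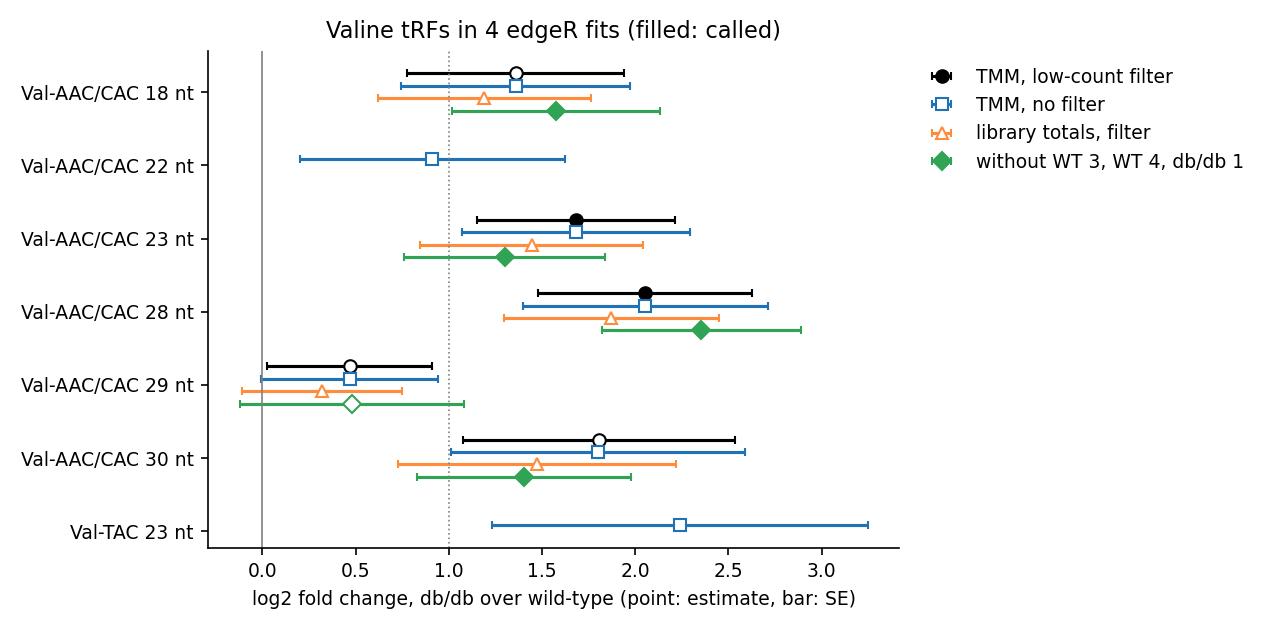
Log2 fold change of the 7 valine tRFs, db/db over wild-type (horizontal axis, points with SE bars, dotted line at a fold change of 2), in 4 edgeR fits, with filled symbols for calls. All estimates lie above 0, the 29-nt form lies lowest, and calls appear in the TMM fit with the filter (28-nt and 23-nt) and in the fit without the 3 Cys/Leu/Ser-rich libraries (18-nt, 23-nt, 28-nt and 30-nt).

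The calls depended on the scaling, the terms and fragments of the fit, and single libraries. With library totals alone, which move the median log2 fold change of the 44 fragments from 0.06 to -0.11, the 28-nt form was at 1.87 and the 23-nt form at 1.44 (edgeR adjusted p = 0.151 and 0.186), and 0 of 44 fragments were called. A term for the library number had 2 levels, replicates 1 and 2 of each genotype against replicates 3 and 4. With it the 28-nt and 23-nt forms were at 1.93 and 1.67 (edgeR adjusted p = 0.112 and 0.134), again with 0 of 44 called. Without fragments of 17 nt or shorter they were at 1.46 and 1.08 (edgeR adjusted p = 0.133 and 0.260), with 0 of 25 called. These counts, and those that follow, are of fragments called higher in db/db. Since no fragment of any tRNA was called higher in these 3 fits, the loss was not particular to valine. Neither form passed when replicate 1, 3 or 4 of the wild-type or replicate 2, 3 or 4 of the db/db group was left out (edgeR adjusted p from 0.111 to 0.526), in fits whose filter let 60 to 68 fragments through and that called 1 of 63 (1.59%), 2 of 62 (3.23%) and 3 of 60 (5%) of them for the 3 wild-type libraries and 0% for the 3 db/db libraries. Without wild-type replicate 2 the 30-nt form passed as well (log2 fold change 2.52, edgeR adjusted p = 0.0976), beside 10 of 65 fragments (15.4%). Without db/db replicate 1, 4 valine forms passed, with 2.31 for the 28-nt, 2.15 for the 30-nt, 1.81 for the 23-nt and 1.59 for the 18-nt form (edgeR adjusted p = 0.00615, 0.0228, 0.0286 and 0.0627), and 16 of 53 fragments were called higher (30.2%). Without the 3 Cys/Leu/Ser-rich libraries, the same 4 forms passed, at 2.35 for the 28-nt, 1.58 for the 18-nt, 1.40 for the 30-nt and 1.30 for the 23-nt form (edgeR adjusted p = 0.0167, 0.0657, 0.0960 and 0.0960), beside 20 of 63 fragments (31.7%).

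Counts were also summed over the fragments of one set of names. The 5 forms named for Val-AAC and Val-CAC alone summed to 37, 67, 78 and 25 for wild-type replicates 1 to 4 and to 87, 91, 130 and 139 for db/db replicates 1 to 4. The wild-type shares were 1.70%, 4.54%, 1.71% and 1.24%, the db/db shares 3.45%, 4.61%, 7.19% and 8.13%, so db/db replicate 1 lay below wild-type replicate 2. Among 33 sums tested, 1 was called higher (3.03%) and it was not of valine. The Val-AAC/Val-CAC sum had a log2 fold change of 1.18 (SE 0.45, edgeR adjusted p = 0.179), and the set shared with Gly-ACC 0.92 (edgeR adjusted p = 0.335). The Val-AAC/Val-CAC sum was called when wild-type replicate 2 was left out (1.83, edgeR adjusted p = 0.0844), beside 11.4% of the sums tested, and when db/db replicate 1 was left out (1.36, edgeR adjusted p = 0.0461), beside 20.6%. DESeq2 called it too (1.24, DESeq2 adjusted p = 0.0856), beside 10.9% of all sums. Without the 3 Cys/Leu/Ser-rich libraries, both sums passed (1.24 and, with Gly-ACC, 1.38, edgeR adjusted p = 0.0960 and 0.0955), beside 25% of the sums tested.

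The lengths of the valine fragments varied more between libraries than between genotypes. Forms of 28 nt or more made up 54.5%, 54.5%, 51.9% and 74.1% of the valine counts of wild-type replicates 1 to 4, against 45.7%, 52.2%, 66.0% and 61.0% for db/db replicates 1 to 4. The means were 58.8% ± 10.3 and 56.2% ± 9.03 (SD, n = 4 each), a difference smaller than the spread within either group. Wild-type replicate 4, the highest, had 20 long forms among 27 valine counts (95% Wilson interval 55.3% to 86.8%). Without it the difference changed sign, from -2.55 to 2.55 percentage points. The long and the short forms thus each took a larger mean share of the listed counts in db/db iMACs, 4.05% ± 1.92 against 1.53% ± 0.879 for the long and 2.89% ± 0.62 against 1.18% ± 0.853 for the short forms (SD, n = 4 each), and for each of them 3 of 4 db/db libraries exceeded every wild-type library.

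**Figure D3:**
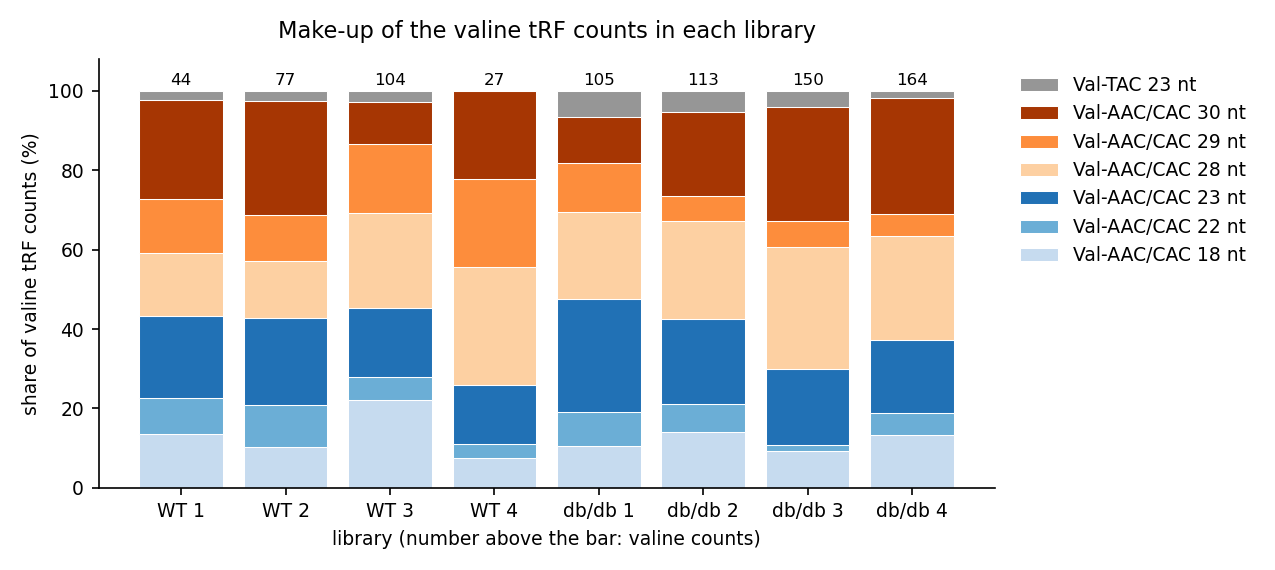
Make-up of the valine tRF counts of each library (vertical axis, % of the valine counts, stacked bars), with the number of valine counts above each bar. The 3 long forms of 28 to 30 nt make up 45.7% to 74.1% of the bars, and the 29-nt band is narrowest in db/db replicates 2, 3 and 4.

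Within the long forms, the 28-nt form was compared with the 29-nt form in each library, a comparison that does not depend on how libraries are scaled. The 28-nt form had 1.17, 1.22, 1.39 and 1.33 counts for each count of the 29-nt form in the wild-type libraries, against 1.77, 4, 4.60 and 4.78 in the db/db libraries, each in the order of replicates 1 to 4. As a share of both forms, the 28-nt form held 53.8% to 58.1% in wild-type libraries (mean 56.0% ± 1.96, SD, n = 4) and 63.9% to 82.7% in db/db libraries (mean 77.2% ± 8.94, SD, n = 4). The groups did not overlap. Valine was selected on the fold change of the 28-nt form, so this separation is no independent evidence. Counting error is wide, since the 95% Wilson interval of db/db replicate 1 (47.6% to 77.5%) covers all wild-type shares. Among the 5 libraries that were not Cys/Leu/Ser-rich, the shares were 53.8% and 55.0% in wild-type against 80.0%, 82.1% and 82.7% in db/db.

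The 23-nt form against the 29-nt form also kept the groups apart, at 40.0% to 65.4% of both in wild-type and 69.8% to 77.4% in db/db libraries. The 29-nt form against the 30-nt form overlapped between genotypes, at 29.03% to 62.1% and 15.8% to 52.0%. Of the 10 pairs among the 5 forms of Val-AAC and Val-CAC, 2 did not overlap between genotypes, and both involve the 29-nt form. Over all tRNAs, 24 of 290 such pairs did not overlap (8.28%), or 22 of 280 without valine (7.86%). In both of the 2 pairs the other form, of 28 nt or 23 nt, is one on which valine was selected. Their separation is therefore no independent evidence. The pairs were looked at after the counts were known, and no test was made of them.

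**Figure D4:**
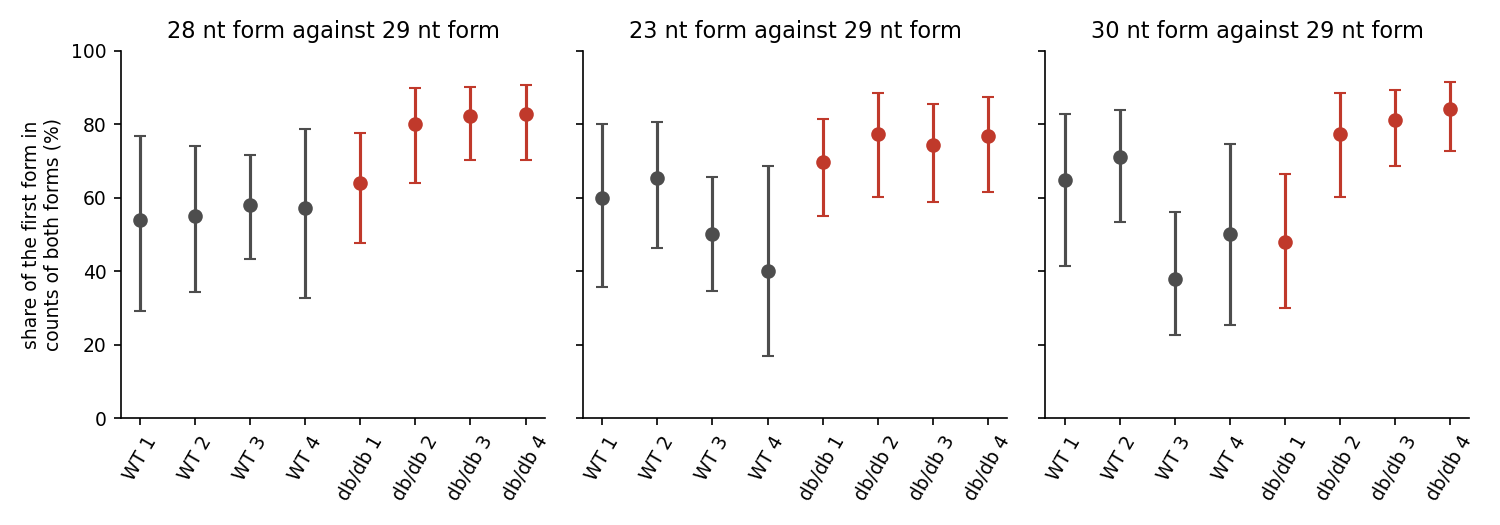
Share of the 28-nt, 23-nt and 30-nt forms of Val-AAC/CAC in the counts of that form and the 29-nt form together (vertical axis, %), by library, with 95% Wilson intervals as bars (WT grey, db/db red). In the first panel wild-type libraries lie at 53.8% to 58.1% and db/db libraries at 63.9% to 82.7%, and in the third panel the groups overlap.

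Among all 5'tRFs of 28 nt or more, the part held by valine overlapped between genotypes. The wild-type values were 18.05%, 32.6%, 15.8% and 19.05%, on average 21.4% ± 7.59 (SD, n = 4). The db/db values were 22.02%, 23.4%, 23.1% and 25.8%, on average 23.6% ± 1.61 (SD, n = 4). All db/db values lay inside the wild-type range, which wild-type replicate 2 alone stretched above 19.05%. In the fit without a filter, the 3 long valine forms had a median log2 fold change of 1.80, and 10 long 5'tRFs of other tRNAs had 1.74, with 8 of the 10 above 0. The shorter 5'tRFs differed more between valine and the rest. The 4 short valine forms had a median log2 fold change of 1.52 and 4 of 4 above 0, and 46 short 5'tRFs of other tRNAs had -0.45 with 20 above 0, a list that includes the Ser-GCT, Leu-TAG and Cys-GCA fragments high in 3 libraries. Their part in that difference was not tested. The long and the short valine forms include the 28-nt and the 23-nt form, on which valine was selected, and all but the Val-TAC fragment are nested. The contrasts with other tRNAs are therefore no independent evidence.

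**Figure D5:**
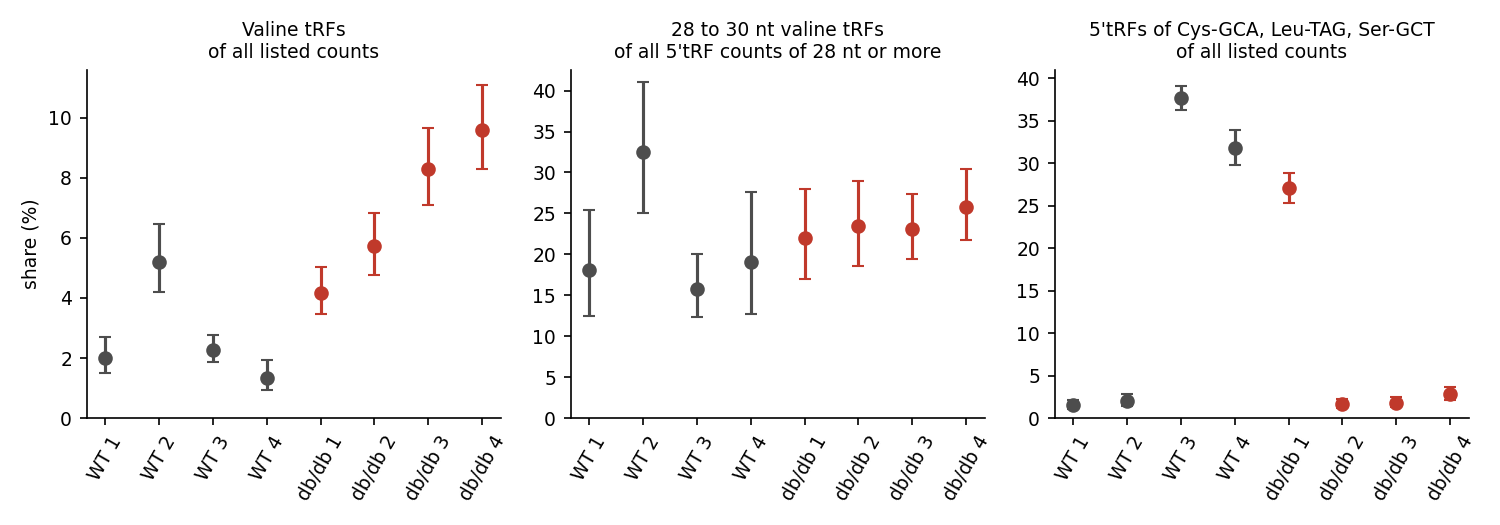
By library (WT grey, db/db red), shares in % with 95% Wilson intervals of valine tRFs in all listed counts (left), of valine forms of 28 nt or more in all 5'tRF counts of 28 nt or more (middle), and of the Ser-GCT, Leu-TAG and Cys-GCA 5'tRFs in all listed counts (right). The left panel reaches 9.59% in db/db replicate 4, the middle panel holds the db/db libraries at 22.02% to 25.8% within the wild-type range, and the right panel shows the 3 Cys/Leu/Ser-rich libraries at 27.1% to 37.6%.

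The level of the 28-nt form over the 8 libraries was compared with that of 37 fragments of other tRNAs, as the Pearson correlation r of log2 CPM. The most alike were a 29-nt 3' fragment of Asp-GTC (r = 0.90), a 27-nt 5'tRF of Gly-CCC (r = 0.90) and a 25-nt 5'tRF of Leu-CAG (r = 0.90). Within valine, the 23-nt form was most like the 28-nt form (r = 0.89), followed by the 18-nt and 30-nt forms (r = 0.86 each), the 29-nt form (r = 0.80), Val-TAC (r = 0.77) and the 22-nt form (r = 0.45). These points share libraries, scaling and the difference between genotypes, so the values are a description.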

How the data were processed

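Small RNA libraries were made from sorted iMACs with the QIAseq miRNA kit. Per the methods of the study, the authors collapsed identical reads longer than 16 nt by unique molecular identifier, aligned them to GRCm38.p6 and kept perfect matches to mature tRNAs. By these methods the counts that the authors deposited are of molecules, which the table itself cannot show. Its shortest sequence has 8 nt, below that length limit. The authors also deposited log2 values, whose scaling is not given in the sources used here and which were not tested. Losses at modified bases differ between tRNAs and can affect levels.

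Of 242 entries, 13 were named for valine, and repeats of 1 sequence were used once. Fragments ending in CCA were taken as 3', those judged to begin at the mature 5' end or 1 nt from it as 5', and the rest as internal. For cytosolic tRNAs this start was inferred from conserved bases near the 5' end of a tRNA. Other fragments that were too short to hold these bases, or lacked them, were therefore counted as internal. Genotypes, taken from the labels, were compared over all fragments by the quasi-likelihood test of edgeR 4.0.16 (R 4.3.3) with TMM factors, filterByExpr (minimum count 10, minimum total 15) and Benjamini-Hochberg adjustment. SEs were derived from the F statistic. The p values weigh the difference between genotypes against the spread between these libraries, which may be partly technical. DESeq2 1.42.0 was an alternative. Other alternatives were other scalings and filters, leaving out libraries, and leaving out fragments of 17 nt or shorter. A further one was a term for the library number, with lower numbers set against higher ones. The code was tested on simulated data. Shares have 95% Wilson intervals, which cover counting error only. Listed totals (1477 to 4567) are not the sequencing depth. Every valine fragment with 20 or more counts in total was described with all its values, and the 3 most similar fragments of other tRNAs were named. The fragments of 1 tRNA entered all fits but are not named here. The members, lists and alternatives were chosen with earlier results of these data known.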

Additional observations from a re-analysis of the deposited data

Results flagged for a closer look

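In 4 of the 36 groups of 4 libraries looked at, 1 library lay far from the other 3 by Dixon's test at the 95% level, which chance alone gives in about 1 of 20 groups. The part of all listed counts held by valine forms of 28 nt or more was 2.84% in wild-type replicate 2 and 0.996% to 1.18% in the other wild-type libraries. The part of long forms among the valine counts was 74.1% in wild-type replicate 4, which had 27 valine counts, and 51.9% to 54.5% in the others. The 29-nt form made up 27.1% of the long valine forms in db/db replicate 1 and 9% to 11.9% in the other db/db libraries, and the wild-type libraries ranged from 21.4% to 33.3%. Of the 22-nt and 23-nt forms together, the 22-nt form made up 6.45% in db/db replicate 3, or 2 of 31 counts, and 23.1% to 25.0% in the other db/db libraries.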

How the results depend on the processing

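The log2 fold changes of the 5 tested valine fragments stayed above 0 in every alternative that tested them (the stricter filter tested the 23-nt and 30-nt forms only, and the fit without fragments of 17 nt or shorter left out the 29-nt form), at 1.46 to 2.35 for the 28-nt, 1.08 to 2.19 for the 23-nt, 1.08 to 2.52 for the 30-nt, 0.81 to 1.69 for the 18-nt and 0.26 to 0.62 for the 29-nt form. The count of 2 valine calls was 0 with library totals alone, with no filter, with both (chosen after seeing the data), with a term for the library number (0 of 44 over all tRNAs) and without fragments of 17 nt or shorter (0 of 25). It was 1 of 2 tested with the stricter filter (3 of 17 over all tRNAs, 17.6%), 4 without the 3 Cys/Leu/Ser-rich libraries (20 of 63, 31.7%), and 0 to 4 with 1 library left out. All these counts are of calls higher in db/db. Their number over all fragments also moved with the filter, from 6 of 44 to 11 of 144 without it. Of the sums, 0 were called, but 1 with DESeq2, 2 without those 3 libraries, and 0 to 1 with 1 library left out. The difference in valine share, 4.23 percentage points, was 3.35 to 6.30 in its 12 alternatives. The difference in the part of long forms, -2.55 points, was -5.80 to 2.55 with 1 library left out, turning positive without wild-type replicate 4 (2.55) and without db/db replicate 1 (0.957). It was also positive without the 3 libraries (5.18) and with long forms counted from 30 nt (1.06). The causes were not tested. No paired analysis was possible because the labels give no replicate numbers that libraries share. The 27 to 164 valine counts per library limit the precision of every share, most of all for Val-TAC and the 22-nt form.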
